A study of Mus musculus with 6 samples.

Results

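The IkB kinases, the TRAF adaptors that feed them and the inhibitor A20 were followed in whole mouse retina by their mRNA levels. The set holds 10 genes out of 24346 symbols in the deposited tables: the kinase genes Chuk, Ikbkb, Ikbkg, Ikbke and Tbk1, the adaptors Traf2, Traf3 and Traf6, and the TNF-induced genes Tnfaip3 and Tnfaip2. They were chosen by symbol, for their place in the pathway to NF-kB, and each was found once. Tnfaip3 was already described as unusually abundant in the retina when the set was drawn up. Its high level, given below, is thus a description and not an independent finding. Retinas of Unc119+/+ mice (wild type, 3 libraries) were compared with retinas of Unc119-/- mice (knockout, 3 libraries). The labels describe no treatment, age, sex or strain, and nothing in them says how the allele was made or that each library came from its own animal. Each p-value below thus rests on how far these libraries differ from each other, and that spread may be technical in part.

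In the resting cell NF-kB is held in the cytoplasm by IkB proteins. Signals from TNF, interleukin and Toll-like receptors are gathered by TRAF proteins, which act as adaptors and, in the case of TRAF6, as a ubiquitin ligase building chains that recruit the kinase complex. That complex joins the kinases IKKα (Chuk) and IKKβ (Ikbkb) with the regulatory subunit NEMO (Ikbkg), and it marks IkB for destruction. The related kinases TBK1 and IKKε (Ikbke) act mainly on interferon regulatory factors and on autophagy receptors. A20 (Tnfaip3) edits the ubiquitin chains and so restrains the pathway, and its gene is itself a classical NF-kB target. In the retina the pathway is known from photoreceptors, Müller glia and microglia. Protein, phosphorylation and NF-kB activity were not measured here.

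The start site of Tnfaip3 is shown first, because that gene stood apart from the others in level and is known to carry NF-kB sites at its promoter. In the RefSeq start-site windows (GRCm38.p6, 250 bases before to 50 after the start), the letters GGNATTTCC, a short form of the NF-kB site, were searched on both strands. The letters were chosen with the Tnfaip3 window in view. They were present in 409 of 32851 windows of this length (1.25%), and at least 2 times in 7 (0.0213%). Start windows were matched for 9 of the 10 genes, not for Ikbkb. These genes had 13 windows, of which 2 held the letters. Of those 9 genes, Tnfaip3 held 2 matches, on opposite strands, and Traf3 held 1. The stretches are read 5′ to 3′ on the strand of the gene, with the matches in capitals.
Tnfaip3, chr10:19015409-19015438, minus strand: gactGGAATTTCCatcGGAAATCCCcctgt
Traf3, chr12:111166351-111166380, plus strand: gcggcccgcgGGGATTTCCagcgcgcgaga
The Tnfaip3 matches lie between 24 and 4 bases before its first listed start, and a second listed start of that gene had none. The match of Traf3 lies between 9 and 1 bases before its start. These are matches of letters, and binding was not measured.

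Unc119, the targeted gene, measured 1195 ± 10.1 FPKM in wild-type libraries and 473 ± 32.8 FPKM in knockout libraries (SD, n = 3 each). FPKM is the number of fragments scaled to transcript length and to library size, so levels of different genes can be set beside each other. Lens RNA varied widely: 17 lens genes summed to 0.704 to 835 FPKM in the wild-type libraries, to 285 and 705 FPKM in knockout replicates 1 and 2, and to 11990.5 FPKM in knockout replicate 3. By the level of Xist, 2 wild-type and 1 knockout library were male. The wild-type libraries included 1 female and the knockout libraries 2. Of 14176 genes with a mean of at least 0.5 FPKM, limma called 33 (0.233%) at a Benjamini-Hochberg adjusted p under 0.05, 29 higher (0.205%) and 4 lower (0.0282%). Separation of all wild-type from all knockout values was seen in 15.9% of these genes (7.83% higher and 8.04% lower in the knockout).

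Among the 10 genes Tnfaip3 had by far the most mRNA per length in each library. Its mean over the 6 libraries was 93.3 FPKM, which placed it 647th of the 14176 tested genes, above 95.4% of them, against a median of 11.0 FPKM for tested genes. The next gene, Tbk1, averaged 20.3 FPKM, so that Tnfaip3 was 4.60 times as high. Then came Chuk at 18.3 FPKM, Ikbkb at 15.1 FPKM, Ikbkg at 14.4 FPKM, Traf3 at 10.9 FPKM, Traf2 at 8.69 FPKM and Traf6 at 7.05 FPKM. The ranges over libraries overlapped between neighbours in this order for Tbk1 with Chuk, Chuk with Ikbkb, Ikbkb with Ikbkg, and, at the bottom, Ikbke with Tnfaip2. From Ikbkg downward each gene lay above the next in all 6 libraries without overlap, as far as Traf6. Ikbke (0.129 FPKM) and Tnfaip2 (0.106 FPKM) followed. Their highest libraries, at 0.172 and 0.268 FPKM, lay far under the lowest Traf6 value of 6.30 FPKM. No other tissue was measured, so how the retina compares with other organs cannot be read from these data.

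**Figure D1:**
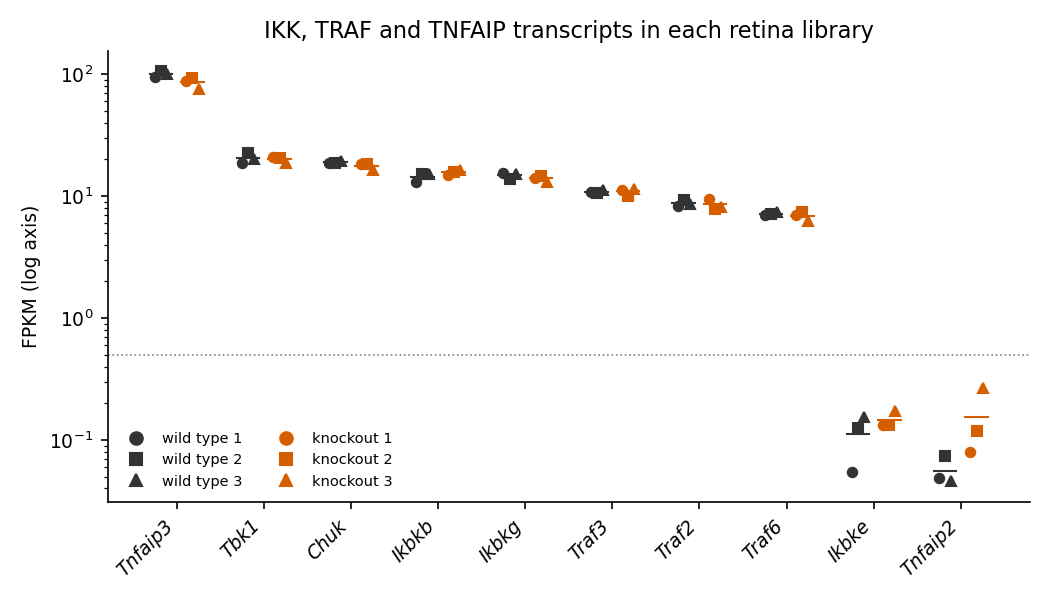
FPKM on a log axis of the 10 genes in each of 3 wild-type (dark grey) and 3 knockout (orange) libraries, in falling order of mean level, with short lines at the group means and a dotted line at the filter of 0.5 FPKM. Tnfaip3 lies above all others in each library, 7 genes lie between 6.30 and 22.5 FPKM, and Ikbke and Tnfaip2 lie under the filter.

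None of the 8 genes past the filter was called by limma after adjustment over all genes. At an unadjusted p under 0.05 there was 1, Tnfaip3, on the lower side, against 3.81% of all tested genes lower and 5.19% higher. Of the 8 genes, 6 had a lower and 2 a higher mean in the knockout, with log2 changes from −0.23 to 0.12 and a median of −0.05, against a median of 0.00 over all tested genes. Wild-type and knockout values were fully separated for 2 of the 8, Tnfaip3 and Chuk, both lower in the knockout, against 8.04% of all tested genes on that side. In whole retina, fewer cells of a type and less RNA per cell cannot be told apart. Changes are differences in log2(FPKM + 1), which understate the change of genes of low level.

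**Figure D2:**
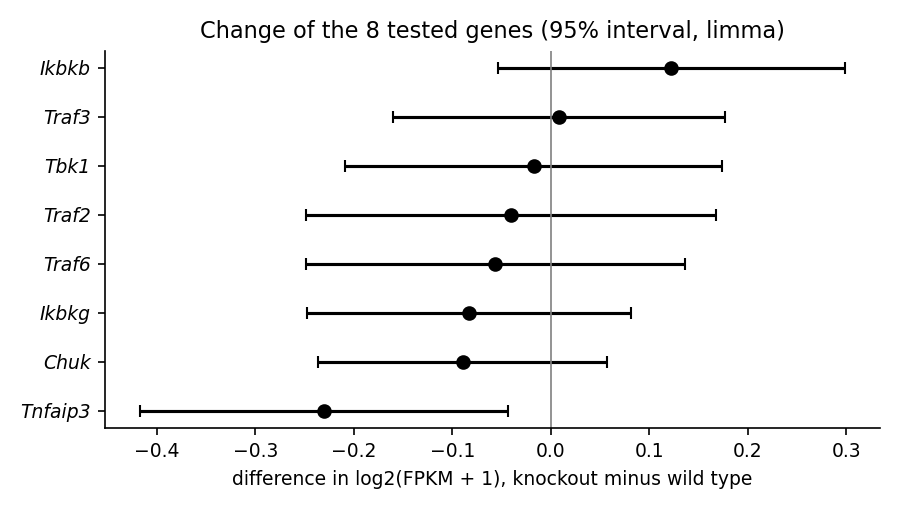
Difference in log2(FPKM + 1), knockout minus wild type, for the 8 tested genes, with 95% intervals from limma on 3 against 3 libraries. The interval of Tnfaip3 (−0.42 to −0.04) lies under 0 before adjustment for the number of genes, and the intervals of the other 7 include 0.

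A20 is the brake on the chain. Tnfaip3 (ENSMUSG00000019850.11, mm10 chromosome 10, 19000910 to 19015657, minus strand, protein coding) measured 95.1, 106 and 101 FPKM in the wild-type libraries, given here and below in the order of their replicate numbers, and 87.8, 94.0 and 75.9 FPKM in the knockout libraries. Each knockout library was under each wild-type library, but the nearest pair, wild-type replicate 1 and knockout replicate 2, lay only 1.10 FPKM apart. The means were 101 ± 5.43 and 85.9 ± 9.17 FPKM (SD, n = 3 each) and the knockout mean was 85.4% of wild type. The log2 change was −0.23 (SE 0.08, limma unadjusted p = 0.0218, adjusted p = 0.497), and p = 0.1 was obtained in the two-sided exact permutation test, which cannot go lower with 3 libraries a group.

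The lowest Tnfaip3 level was that of knockout replicate 3, in which lens RNA was highest. Without it the log2 change of Tnfaip3 was −0.14 (adjusted p = 0.677) and the difference between the means was −9.69% of wild type. Lens genes made up 2.98% of the FPKM sum of that library and at most 0.217% of any other. With lens level added to the model as a term, the change was −0.17 (adjusted p = 0.938). The 10 rod markers summed to 26361 to 28520 FPKM in wild-type libraries and to 27169 to 28573 FPKM in knockout libraries. The 8 cone markers summed to 774, 821 and 761 FPKM in wild type and 722, 754 and 706 FPKM in the knockout, so that their sum, like Tnfaip3, was lower in each knockout library and lowest in replicate 3. Of these markers 1 of 8 was higher, none was called by limma, and the part of cones in the Tnfaip3 values was not tested. The level was lower in the knockout within each sex, by 0.19 on the log2 scale in males (2 wild-type libraries, 1 knockout) and by 0.25 in females (1 and 2). With 1 library in each of these smaller arms, whether the sexes differ cannot be judged.

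By the profile over the 6 libraries, the 5 genes most like Tnfaip3 were Wdr82, D1Ertd622e, Mad2l1bp, Fam53c and Cabp4, with Pearson r from 0.987 to 0.990 on log2(FPKM + 1). The 6 points share their libraries, and with so few of them such values are a description only. Cabp4, which encodes a calcium-binding protein of photoreceptor synapses, measured 159 ± 1.90 FPKM in wild-type libraries and 148 ± 7.41 FPKM in knockout libraries (SD, n = 3 each, limma adjusted p = 0.583). It had the lowest r of the 5. Wild-type and knockout means were 26.8 and 25.3 FPKM for Wdr82 and 35.6 and 31.3 FPKM for D1Ertd622e. They were 9.52 and 7.62 FPKM for Mad2l1bp and 37.6 and 33.7 FPKM for Fam53c. All 5 were lowest in knockout replicate 3, and a link of Tnfaip3 to photoreceptors was not tested. Among the other kinase and TRAF genes, r with Tnfaip3 ran from −0.52 for Traf3 to 0.89 for Chuk.

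The genes of the IKK complex lay close together in level. Chuk (ENSMUSG00000025199.16, chromosome 19, 44073335 to 44107480, minus strand), which encodes IKKα, the kinase of the non-canonical branch, measured 18.6, 18.8 and 19.5 FPKM in wild-type libraries and 18.5, 18.3 and 16.5 FPKM in knockout libraries. The genotypes were separated by 0.0862 FPKM only, and knockout replicate 3 was the one library clearly under the rest. The log2 change was −0.09 (95% interval −0.24 to 0.06, limma adjusted p = 0.697), and without knockout replicate 3 it was −0.04 (adjusted p = 0.916). With the lens term it was −0.02.

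Ikbkb (ENSMUSG00000031537.15, chromosome 8, 22659212 to 22706589, minus strand), the gene of the main catalytic subunit IKKβ, measured 13.1, 15.1 and 15.1 FPKM in wild-type libraries and 15.0, 15.7 and 16.5 FPKM in knockout libraries. Its direction was opposite to that of Chuk. Wild-type replicate 1 was low, and the other wild-type libraries overlapped with knockout replicate 1. The log2 change was 0.12 (95% interval −0.05 to 0.30, limma adjusted p = 0.663). It was 0.06 without wild-type replicate 1 (adjusted p = 0.862). The span of an antisense gene, Gm15346, shares 9382 bases with that of Ikbkb, introns included. The deposited tables hold no entry under the symbol Gm15346.

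The ratio of Ikbkb to Chuk was 0.704, 0.807 and 0.775 in wild type and 0.815, 0.860 and 1.002 in the knockout. It was higher in each knockout library, with the 2 transcripts at equal level in knockout replicate 3. The means were 0.762 ± 0.0526 and 0.892 ± 0.0977 (SD, n = 3 each, exact permutation p = 0.1, the smallest possible, and 0.15 after Benjamini-Hochberg adjustment over 3 ratios). Without knockout replicate 3 the difference between the means was 0.0758 in place of 0.131. This ratio and the other 2 were chosen after the values were seen.

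Ikbkg (ENSMUSG00000004221.16, chromosome X, 74393290 to 74453854, plus strand) encodes NEMO, the subunit that binds ubiquitin chains. It measured 15.4, 13.9 and 15.3 FPKM in wild-type libraries and 14.1, 14.8 and 13.1 FPKM in knockout libraries, with overlap (log2 change −0.08, 95% interval −0.25 to 0.08, limma adjusted p = 0.744). Without knockout replicate 3 the change of Ikbkg was −0.039, without wild-type replicate 2 it was −0.13, and with the lens term −0.011. The ratio of Ikbkg to Chuk was 0.786 ± 0.0430 and 0.789 ± 0.0227 (SD, n = 3 each, exact permutation p = 0.9). The gene spans of Ikbkg and G6pdx, introns included, share 19712 bases on opposite strands, and G6pdx measured 34.9 to 40.0 FPKM. Overlap of exons was not counted, here or for the other overlaps named in this report. Whether the authors counted by strand was not stated, so reads of the 2 genes may not be fully separated. Opposite-strand genes also overlap Traf3 (4930595D18Rik, 18122 bases, at most 0.419 FPKM), Ikbke (Gm28913 and Gm28914), Traf2 (Gm13433) and Tnfaip2 (Gm40578). The last 4 have no entry under these symbols in the deposited tables.

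Of the IKK-related kinases, TBK1 had an abundant transcript and IKKε a scarce one. Tbk1 (ENSMUSG00000020115.3, chromosome 10, 121546455 to 121586787, minus strand) measured 18.7, 22.5 and 20.02 FPKM in wild-type libraries and 21.1, 20.7 and 18.6 FPKM in knockout libraries. The genotypes overlapped almost wholly (log2 change −0.02, 95% interval −0.21 to 0.17, limma adjusted p = 0.963). On the scale of FPKM + 1 that interval runs from 13.5% lower to 12.8% higher.

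Ikbke (ENSMUSG00000042349.13, chromosome 1, 131254343 to 131279606, minus strand) measured 0.0543, 0.124 and 0.155 FPKM in wild-type libraries and 0.133, 0.134 and 0.172 FPKM in knockout libraries. Tnfaip2 (ENSMUSG00000021281.15, chromosome 12, 111442469 to 111455018, plus strand) encodes a protein of the exocyst family induced by TNF and has no sequence kinship with A20 in spite of its name. It measured 0.0484, 0.0739 and 0.0459 FPKM in wild-type libraries and 0.0790, 0.119 and 0.268 FPKM in knockout libraries. Neither passed the filter, and with no filter limma gave adjusted p-values of 0.853 for Ikbke and 0.693 for Tnfaip2.

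These low values lay on steps, as values made from a handful of fragments do. Multiplied by the relative depth of each library, read from the commonest ratio between libraries among genes of at most 0.3 FPKM, each was a whole multiple of the lowest one to within 0.00014. For Ikbke the multiples were 1, 3 and 3 in wild type and 3, 3 and 4 in the knockout. For Tnfaip2 they were 1, 2 and 1 in wild type and 2, 3 and 7 in the knockout. Wild-type replicate 2 and knockout replicate 1 thus stood on the same step for Tnfaip2, although their FPKM values did not overlap. Whether 1 step is 1 fragment was not stated. The highest step of Tnfaip2 was in knockout replicate 3. That library also had the highest sums of lens markers and of the 9 pigment epithelium markers (94.3 FPKM, against 22.7 to 73.9 FPKM in the others). Its sums of microglia and macrophage (83.3 FPKM) and Müller glia markers (1907 FPKM) were the highest of the 6 libraries too. Its vessel markers (99.3 FPKM) were level with those of knockout replicate 1 (99.1 FPKM). As a share of the FPKM sum they were under wild-type replicate 2 (0.0247% against 0.0256%). Its sums of rod, cone, optic nerve and cornea or ciliary body, lymphocyte and neutrophil, and red blood cell markers were not the highest. The part of these cells in the Tnfaip2 value was not tested. No fold is given for either gene.

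**Figure D3:**
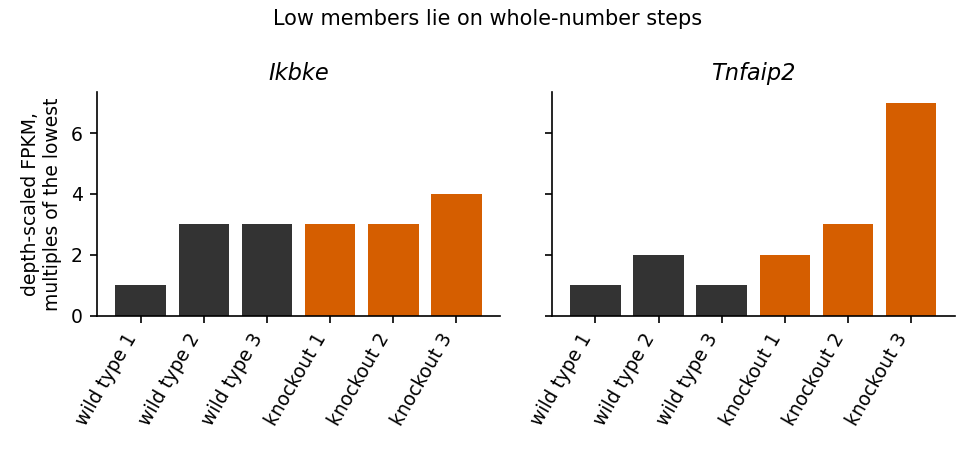
FPKM of Ikbke and Tnfaip2 times relative depth, as multiples of the lowest library of each gene, with 1 bar per library (wild type dark grey, knockout orange). Ikbke runs from 1 to 4 and Tnfaip2 from 1 to 7, with the tallest bar of both in knockout replicate 3.

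The TRAF adaptors were at steady levels. Traf2 (ENSMUSG00000026942.13, chromosome 2, 25517982 to 25546940, minus strand), which joins TNF receptors to the kinases and to inhibitor-of-apoptosis ligases, measured 8.36, 9.39 and 8.69 FPKM in wild-type libraries and 9.55, 7.90 and 8.22 FPKM in knockout libraries. The highest and the lowest value were both in knockout libraries (log2 change −0.04, 95% interval −0.25 to 0.17, limma adjusted p = 0.911). The male knockout library was above both male wild-type libraries, and both female knockout libraries were under the female wild-type library. That difference rests on 1 male knockout and 1 female wild-type library, so its test has little power to tell the sexes apart (difference −0.19 on the log2 scale, SE 0.18, limma unadjusted p = 0.337, adjusted p = 0.9998).

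Traf3 (ENSMUSG00000021277.16, chromosome 12, 111166370 to 111267153, plus strand), which holds down the kinase NIK and serves interferon induction, measured 10.8, 10.6 and 11.2 FPKM in wild-type libraries and 11.3, 10.1 and 11.4 FPKM in knockout libraries. It had the narrowest range of the 10 genes, 1.13-fold from lowest to highest library. The log2 change was 0.01 (95% interval −0.16 to 0.18, limma adjusted p = 0.980).

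Traf6 (ENSMUSG00000027164.8, chromosome 2, 101678429 to 101701669, plus strand), the adaptor of interleukin-1 and Toll-like receptors, measured 7.02, 7.10 and 7.46 FPKM in wild-type libraries and 7.03, 7.35 and 6.30 FPKM in knockout libraries. Only knockout replicate 3 lay outside the wild-type range. The log2 change was −0.06 (95% interval −0.25 to 0.14, limma adjusted p = 0.861). For Tbk1, Traf2, Traf3 and Traf6 the sign of the change was not stable over the alternatives tried, since the values lie near 0.

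Around these genes, 5 lists of pathway genes were read from the same fit. Together they hold 94 genes besides the 10, of which 91 were in the tables and 73 were tested. After adjustment over all genes 1 was called higher and none lower (limma), against 0.205% and 0.0282% of all tested genes. At an unadjusted p under 0.05 there were 10 higher and 3 lower, against 5.19% and 3.81% of all tested genes. Full separation was seen for 13 on the higher and 6 on the lower side, 26.0% in all, against 15.9% of all tested genes. The median log2 change was 0.02. Bcl3 and Icam1 passed the filter only through the knockout, where they were high, and are part of these counts. Both are among the 13 separated on the higher side. The filter thus bears on the share of 26.0%, and the 15.9% over all tested genes rests on the same filter. With no filter, 15 of the 91 genes were separated on the higher and 6 on the lower side. No share over all genes was taken without the filter. Without Bcl3 and Icam1, 8 tested genes were higher and 3 lower at an unadjusted p under 0.05.

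Of 25 tested upstream adaptors and kinases none was called (limma), with 1 higher and 2 lower at an unadjusted p under 0.05 and a median of 0.02. Xiap, an inhibitor-of-apoptosis ubiquitin ligase on the X chromosome and the most abundant of them, measured 95.8, 85.8 and 98.5 FPKM in wild-type libraries and 76.0, 76.0 and 72.7 FPKM in knockout libraries. Each knockout library was under the lowest wild-type library (log2 change −0.31, 95% interval −0.45 to −0.18, limma adjusted p = 0.159). Tnfrsf1a, the main TNF receptor, measured 2.25, 2.995 and 3.17 FPKM against 4.29, 5.13 and 5.88 FPKM, again with no overlap (log2 change 0.68, limma adjusted p = 0.218).

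In the list of A20 partners, deubiquitinases and brakes 15 genes were tested and none was called (limma), with 2 higher and none lower at an unadjusted p under 0.05 and a median of 0.00. Tnip2, which encodes the A20-binding protein ABIN-2, measured 14.0, 17.4 and 17.97 FPKM in wild-type libraries and 23.9, 24.9 and 20.9 FPKM in knockout libraries. It was thus higher in each knockout library while Tnfaip3 was lower (Tnip2 log2 change 0.48, 95% interval 0.24 to 0.72, limma adjusted p = 0.239). The ratio of Tnfaip3 to Tnip2 was 6.77, 6.10 and 5.62 in wild type and 3.67, 3.78 and 3.63 in the knockout, 6.16 ± 0.578 against 3.69 ± 0.0794 (SD, n = 3 each). The exact permutation p was 0.1, the smallest possible, and 0.15 adjusted over the 3 ratios. Leaving out any 1 library changed the difference of −2.47 to between −2.74 and −2.17. Since Tnfaip3 was lower and Tnip2 higher in each knockout library, their ratio had to separate the genotypes and keep its sign. The permutation p of the ratio thus adds nothing to the values of the 2 genes, and neither gene was called. Tnip2 was also named for its small p in this list.

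Nlrx1, a mitochondrial NOD-like receptor that binds TRAF6 and dampens the pathway, measured 2.07, 1.80 and 1.78 FPKM against 3.70, 3.24 and 3.28 FPKM (log2 change 0.61, limma adjusted p = 0.135). Tax1bp1, an adaptor that brings A20 to its targets, was the most abundant of this list. It measured 130 ± 7.05 and 130 ± 6.97 FPKM (SD, n = 3 each), with a 95% interval of the log2 change from −0.14 to 0.13.

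**Figure D4:**
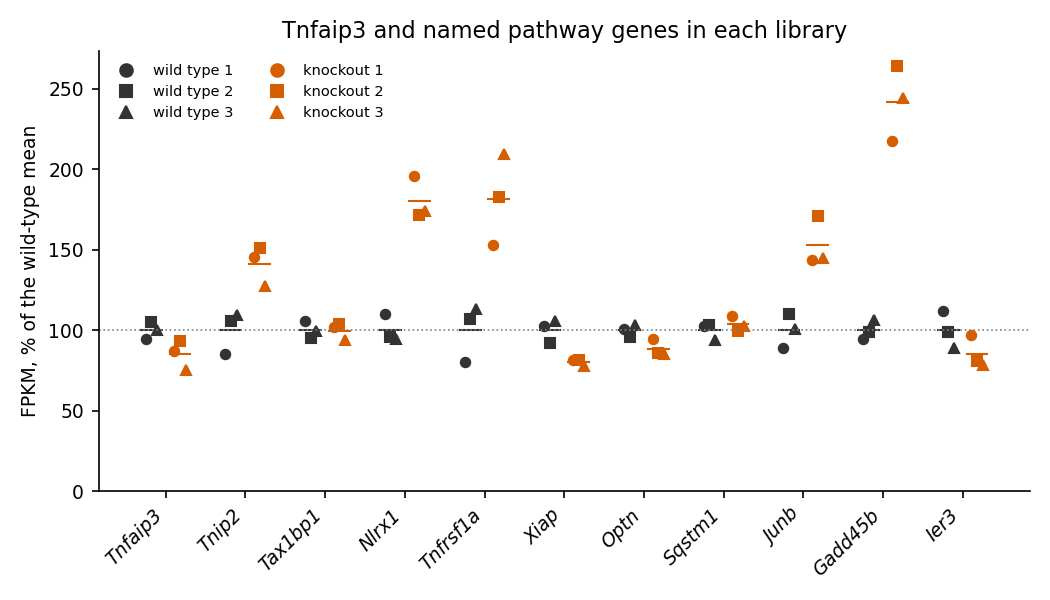
FPKM of Tnfaip3 and 10 of the named pathway genes in each library, as a percent of the wild-type mean of each gene, with short lines at the group means (wild type dark grey, knockout orange, 3 libraries each). Tnfaip3, Xiap and Optn lie under and Tnip2, Nlrx1, Tnfrsf1a, Junb and Gadd45b lie above the wild-type range in all 3 knockout libraries, and of the genes shown only Gadd45b was called.

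Partners and substrates of TBK1 and IKKε gave 13 tested genes and no call (limma), with none higher and 1 lower at an unadjusted p under 0.05 and a median of 0.04. That 1 was Optn, the autophagy receptor optineurin, which binds TBK1 and ubiquitin chains. It measured 93.7, 89.6 and 96.3 FPKM in wild-type libraries and 88.0, 80.2 and 79.5 FPKM in knockout libraries (log2 change −0.17, limma adjusted p = 0.436). Sqstm1, the autophagy receptor p62 and the most abundant gene here, measured 116 ± 6.25 and 120 ± 5.20 FPKM (SD, n = 3 each), and Ifih1, the RNA sensor MDA5, measured 0.857 ± 0.0964 and 1.14 ± 0.154 FPKM. Neither passed the test.

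Downstream, the NF-kB subunits and IkB proteins gave 11 tested genes and no call (limma), with 2 higher and none lower at an unadjusted p under 0.05. Their median was 0.09. Those 2 were Bcl3, an atypical IkB protein, at 0.155 ± 0.0685 and 0.938 ± 0.429 FPKM (SD, n = 3 each, limma adjusted p = 0.369), and Nfkb2, the p100 precursor of the non-canonical branch, at 0.807 ± 0.143 and 1.40 ± 0.356 FPKM (adjusted p = 0.515). Nfkbib, which encodes IkBβ, measured 12.8 ± 1.42 and 12.3 ± 0.881 FPKM. Bcl3 passed the filter only through the knockout, where it was high, and without knockout replicate 2 or 3 it was no longer tested. Leaving it out, the median was 0.03 and 1 gene, Nfkb2, was higher at an unadjusted p under 0.05. On the opposite strand Bcl3 overlaps Gm16174 and Gm16175, Nfkb2 overlaps AC114539.1 (1292 bases) and Psd (299), Nfkbib overlaps Sirt2 (778) and Ccer2 (718), and Junb, below, overlaps Prdx2 (351). Of the genes named above, Nlrx1, Optn, Sqstm1 and Tax1bp1 also overlap annotated genes of the opposite strand.

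Of 13 tested NF-kB target genes 1 was called higher and none lower, with 6 higher and none lower at an unadjusted p under 0.05 and a median of 0.23. Over all tested genes 0.205% were called higher, and 5.19% were higher and 3.81% lower at an unadjusted p under 0.05. The filter bears on these values: Icam1 passed only through the knockout, and 12 of the 25 targets did not pass. Without Icam1, 5 were higher at an unadjusted p under 0.05 and the median was 0.17, and over all 25 targets with no filter the median was 0.07. Gadd45b, a stress gene whose product restrains JNK signalling, rose from 4.14, 4.33 and 4.65 FPKM in wild type to 9.50, 11.6 and 10.7 FPKM in knockout libraries (log2 change 1.11, SE 0.09, limma adjusted p = 0.0045). With the lens term the change was 1.11 (adjusted p = 0.0584). Junb, an AP-1 subunit, measured 10.6 ± 1.12 and 16.3 ± 1.61 FPKM (SD, n = 3 each, limma adjusted p = 0.119). Ier3, the most abundant target, measured 49.4 ± 5.72 and 42.3 ± 4.95 FPKM with overlap. Tnfaip3, itself a target of the pathway, measured lower in the knockout but was not called (limma adjusted p = 0.497).

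Microglia are among the retinal cells in which this pathway is known, and markers of microglia and macrophages were higher in the knockout libraries. The 15 microglia and macrophage markers summed to 40.7 to 47.2 FPKM in wild-type libraries and 69.7 to 83.3 FPKM in knockout libraries, 15 of 15 were higher and 2 were called higher (limma). The part of these cells in the values above was not tested. Of 11 lymphocyte and neutrophil markers none passed the filter, their sums ran from 0.730 to 1.67 FPKM in wild-type libraries and from 0.952 to 2.53 FPKM in knockout libraries, and Cd3e, Ms4a1 and Nkg7 were listed at 0 in each library. Retinal identity was clear in each library, with the 10 rod markers at 6.76% to 7.37% of the FPKM sum.

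**Figure D5:**
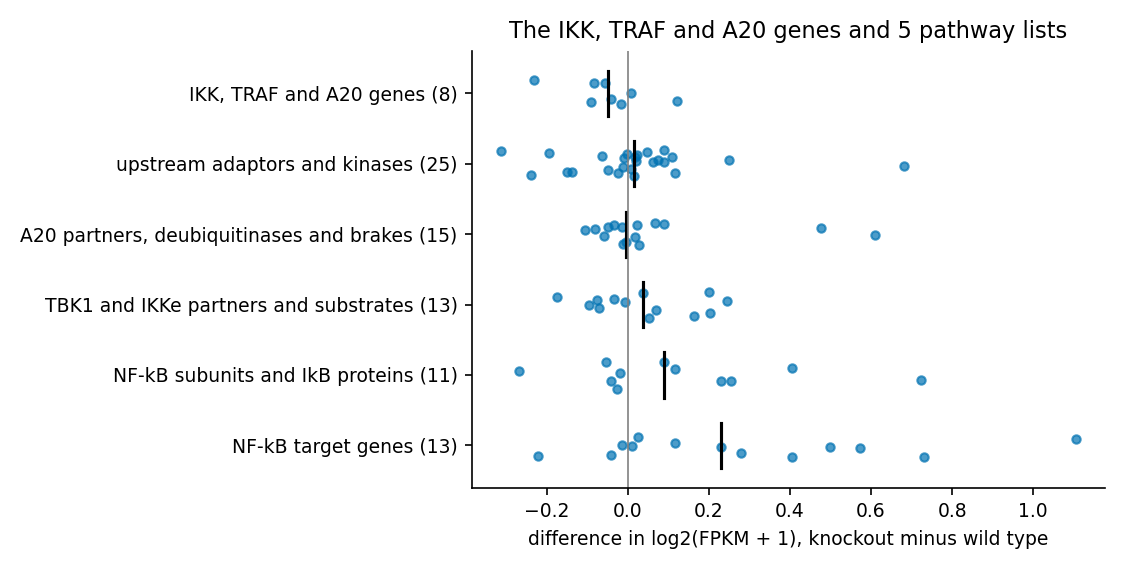
Difference in log2(FPKM + 1), knockout minus wild type, for each tested gene of the IKK, TRAF and A20 set and of 5 pathway lists, with the number of tested genes in brackets and a black bar at the median. The 8 tested IKK, TRAF and A20 genes lie between −0.23 and 0.12, and the NF-kB target genes spread from −0.22 to 1.11.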

How the data were processed

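Retinal RNA was prepared with TRIzol and sequenced from stranded mRNA libraries, per the labels. Per the submitters' processing notes, TopHat2 2.1.1 and Cuffdiff 2.2.1 were used with mm10; the annotation, the strand setting and any scaling between libraries were not stated. FPKM values per gene symbol were deposited by the authors, 1 table per library. Absolute depth is unknown. Relative depth ran from 0.763 (wild-type replicate 1) to 1 (wild-type replicate 2), so low genes are least precise in wild-type replicate 1.

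Genes with a mean of at least 0.5 FPKM were tested with limma 3.58.1 (R 4.3.3) on log2(FPKM + 1), with a variance trend, as a two-sided test at a Benjamini-Hochberg adjusted p of 0.05 over all tested genes. The fit was tested on simulated data. Exact permutation tests used scipy 1.17.1. Coordinates are from GENCODE M21 (GRCm38, mm10) and start windows from RefSeq. Of each pathway list, called genes, the 2 with the smallest p and the most abundant were named. For likeness to Tnfaip3, the 5 genes with the highest r were named, leaving out symbols of the Gm, Rik, LOC, Mir and Snor kinds (the placeholder symbol D1Ertd622e is of none of these). Genes, lists and tests were chosen with earlier results of these data known.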

Additional observations from a re-analysis of the deposited data

How the results depend on the processing

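Over 15 alternatives, limma called none of the 8 tested genes (Ikbke and Tnfaip2 were tested with no filter only, and not called), and Tnfaip3, Chuk, Ikbkb and Ikbkg kept their direction. Tnfaip3 ran from −0.30 to −0.14 (adjusted p 0.443 to 0.938). Near-zero changes turned sign. Tbk1 ran from −0.076 to 0.053 over single libraries left out (above 0 without wild-type replicate 2 or knockout replicate 3), and 0.0046 with a sex term. Traf2 ran from −0.11 to 0.0088 (above 0 without wild-type or knockout replicate 2), and 0.00018 with a sex term. Traf3 ran from −0.021 to 0.061 (under 0 without wild-type replicate 2, knockout replicate 1 or knockout replicate 3) and was −0.0074 with quantile normalization. Traf6 was 0.014 with the lens term. Tax1bp1 ran from −0.040 to 0.041, and was 0.0060 with a sex term and 0.053 with the lens term. Nfkbib ran from −0.13 to 0.014.

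Over all genes, 9 to 24 were called higher and 2 to 4 lower when single libraries were left out. In the pathway lists 1 gene was called higher there each time. With the sex term 17 were higher and 2 lower, with the lens term 5 and 2, and without a variance trend 17 were higher. With no filter 2 were lower. With the lens term 0 pathway genes were called.

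The labels name no pairing of libraries by replicate number. Correlations of deviations were 0.072, −0.090 and −0.119 for numbers 1, 2 and 3. With deviations taken from means of 3 libraries, these values cannot show whether a pairing exists. With the replicate block 13 genes were higher and 2 lower, and the adjusted p of Tnfaip3 was 0.536. The levels of Ikbke and Tnfaip2 rest on 1 to 7 steps in each library.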
